A study of Mus musculus with 2 samples.

Results

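Splicing and RNA-binding regulators were followed in astrocytes of the dentate gyrus (DG), a region of the hippocampus, from WT and β-arr1 KO mice. The set was chosen by gene symbol alone: SR proteins and Tra2 factors, hnRNP proteins, and the Ptbp, Rbfox, Celf, Mbnl, Nova, Khdrbs, Elavl and Esrp families with Qk. After the deposited tables were joined by symbol, 56 of 16302 symbols met this rule, with 55 in each table. Hnrnpa1 was listed in the WT table only and Esrp1 in the KO table only.

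The study asked how β-arrestin 1, a scaffold protein that can also act in the nucleus, works in the cells that surround neural precursors. Astrocytes were cultured from adult DG of C57BL/6 mice (C57BL/6J in the methods of the study) that were wildtype or carried the Beta-arr1 knockout, which was present in every cell and not in astrocytes alone. RNA was sequenced from 1 library per genotype, so nothing below has a replicate check, and no p-value or SD can be given. The values are FPKM, fragments scaled to transcript length and library size, with 1 value per gene, so the use of single exons or isoforms was not measured.

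Regulators of splicing bind short motifs in pre-mRNA and steer which exons the spliceosome joins. SR proteins mostly favour inclusion of the exons they bind, hnRNP proteins often oppose it, and the balance of both sets many choices. Rbfox, Nova, Mbnl, Celf, Ptbp and Esrp proteins add control by cell type, whereas Elavl and Qk proteins also set how long mature mRNAs last.

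The labels of the genes were checked against the annotation terms in the tables. A biological process term with splicing was attached to 37 of the 56 regulators (66.1%), compared with 1.47% of all symbols, and a molecular function term with RNA binding to 46 (82.1%, compared with 3.85%). A nucleus term was held by 51 (91.1%, compared with 28.1%). Celf5, Hnrnph3, Hnrnpr, Hnrnpul2, Srsf11 and Srsf5 had no term for splicing, mRNA processing or RNA binding in these tables. The regulators lay on 20 chromosomes.

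Throughout, a pair of levels gives WT first and β-arr1 KO second. The tables summed to 374406 (WT) and 373279 FPKM (KO), with medians of 7.04 and 7.16 FPKM, and an estimated 9.54 M and 9.81 M mapped fragments. Arrb1, the targeted gene, was at 7.62 (WT) and 2.72 FPKM (KO). All 10 astrocyte markers were listed above 1 FPKM in both libraries, summing to 396 and 420 FPKM, with Gfap at 189 and 192 FPKM. Of these markers 4 were above 3/2 (Aqp4, ratio 1.92; S100b, 1.77; Aldoc, 1.602; Slc1a2, 1.58) and none below 2/3, Glul was at 0.742, and the median log2 ratio was 0.34. The 8 microglia markers summed to 665 and 516 FPKM, the 9 oligodendrocyte lineage markers to 86.3 and 127 FPKM and the 11 skeletal muscle markers to 39.0 and 128 FPKM. The 7 proliferation markers summed to 168 and 172 FPKM. Of 4 Y chromosome genes, none was listed in WT and 4 were listed in KO (8.44 FPKM in sum), so that genotype and sex of the cells cannot be told apart. The part of these differences in the ratios below was not tested. In RNA from a whole culture, fewer cells of a type and less RNA per cell cannot be told apart.

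A name in the tables did not always stand for a single stretch of genome, and Hnrnpa1 is the clearest case. Hnrnpa1, which packages pre-mRNA and represses exons, lies on chromosome 15 of NCBIM37 (mm9) from 103070945 to 103074445 on the plus strand. An annotated copy, Gm5643, lies on the X chromosome from 138732108 to 138733073. The 960 coding bases of Hnrnpa1, spread over 9 exons, were aligned with the copy, and 948 bases (98.8%) were identical, with 12 substitutions and 1 gap. The longest stretch without a difference ran to 280 bases, so reads from either locus can fit the other. The pair of windows below shows how little separates them. They cover coding bases 250 to 279, and the capital letter marks the substitution G265A (the base of Hnrnpa1 first, counted from the first coding base).

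Hnrnpa1, coding exon, chr15:103071994-103072023, plus strand: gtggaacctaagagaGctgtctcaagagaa

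Gm5643, copy, chrX:138732360-138732389, plus strand: gtggaacctaagagaActgtctcaagagaa

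In the WT table, the chromosome 15 locus was listed as Hnrnpa1 with 30.2 FPKM, an estimated 274 fragments. The KO table gave the same locus, from 103070681 to 103076669, under the name Gm5643 with 28.7 FPKM. The copy on the X chromosome had a row of its own in both tables, with 7.04 (WT) and 8.17 FPKM (KO). By locus, the chromosome 15 values were 30.2 and 28.7 FPKM, a ratio of 0.951 (β-arr1 KO vs. WT), although the symbol Hnrnpa1 was not listed in the KO table. How fragments were divided between the locus and its copy cannot be seen in these values.

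Most of the regulators were well expressed in both cultures. Of the 56, 45 reached 1 FPKM in either library and were analysed, and 11 stayed below it. The median level of the analysed regulators was 34.0 FPKM in WT (range, 1.34 to 216) and 37.4 FPKM in KO (range, 0.699 to 232). All analysed genes had medians of 10.5 FPKM in both. In sum the regulators made up 2039 (WT) and 2080 FPKM (KO), or 0.545% and 0.557% of each table.

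**Figure D1:**
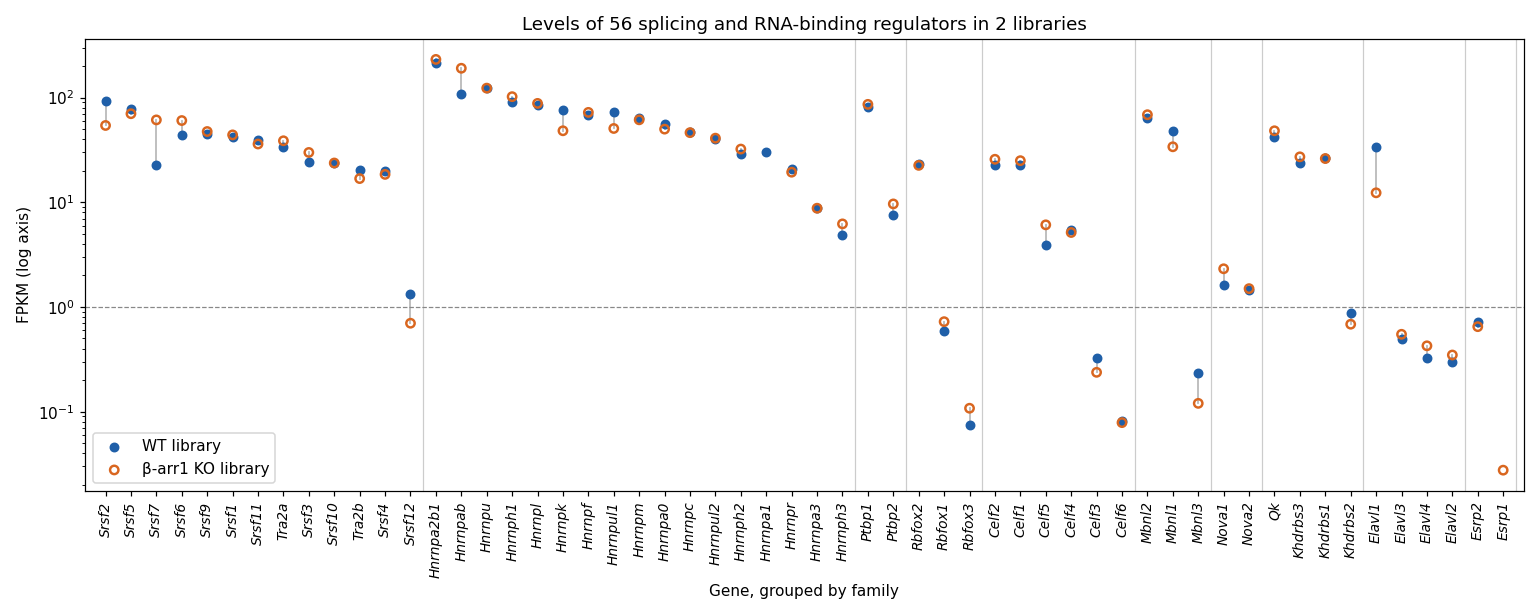
Level of each of the 56 regulators in FPKM (log axis) in the WT library (filled circles) and the β-arr1 KO library (open circles). Families are set apart by vertical lines, and genes are ordered within a family by their higher level in either library. The dashed line is 1 FPKM, below which 11 regulators lie in both libraries, and the widest gaps between circles are those of Srsf7 and Elavl1.

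The regulators differed between the libraries about as often as other genes did. A ratio above 3/2 or below 2/3 was found for 8 of the 45 (17.8%), and for 17.8% of all 12646 genes analysed. Srsf7, Hnrnpab and Celf5 were above 3/2, 3 regulators compared with 9.56% of all genes. Elavl1, Srsf2, Hnrnpk, Srsf12 and Hnrnpa1 were below 2/3 or listed in WT only, 5 regulators compared with 8.28% of all genes. Among genes listed in both tables, 7 of 44 regulators were past a limit, compared with 14.6%, 3 above 3/2 (7.9% of all genes) and 4 below 2/3 (6.74%). Limits of 2 and 1/2 left Srsf7, Elavl1 and Hnrnpa1, 3 of 45 compared with 9.2%. Of the 45, 1 was listed in 1 table only, compared with 3.76%. At 20 FPKM or more in at least one library, 6 of 36 regulators were past a limit, compared with 11% of such genes. In the other 37 regulators the ratio lay between 0.704 and 1.42.

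The middle of the set lay close to that of all genes. The median log2 ratio of the 44 regulators listed in both tables was 0.04, and that of all genes was 0.02. The median size of the log2 ratio, without its sign, was 0.1496 for the regulators and 0.186 for all genes. For genes at 20 FPKM or more it was 0.139 for 35 regulators and 0.147 for all. The ratio was above 1 in 26 regulators and below 1 in 18, and 3 of them (Hnrnpu, Hnrnpul2 and Srsf10), all near 1, turned when the libraries were rescaled. A ratio from 0.8 to 1.25 was found for 31 of 44 regulators, compared with 68.6% of all genes, and at 20 FPKM or more for 27 of 35, compared with 77.2%.

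The depth set how finely a ratio could be read. From the estimated fragments, an exact Clopper-Pearson 95% interval was given to each ratio. Such intervals hold counting error only, with nothing of mice or cultures. They assume the longest annotated transcript of the gene, so they do not hold where a row spans other genes. The interval left out a ratio of 1 in 26 of 44 regulators, 16 of them above 1 and 10 below, compared with 40.9% of all genes with an interval (22.4% above and 18.5% below). At 20 FPKM or more, it left out 1 in 22 of 35 regulators, compared with 54.6% of all such genes.

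**Figure D2:**
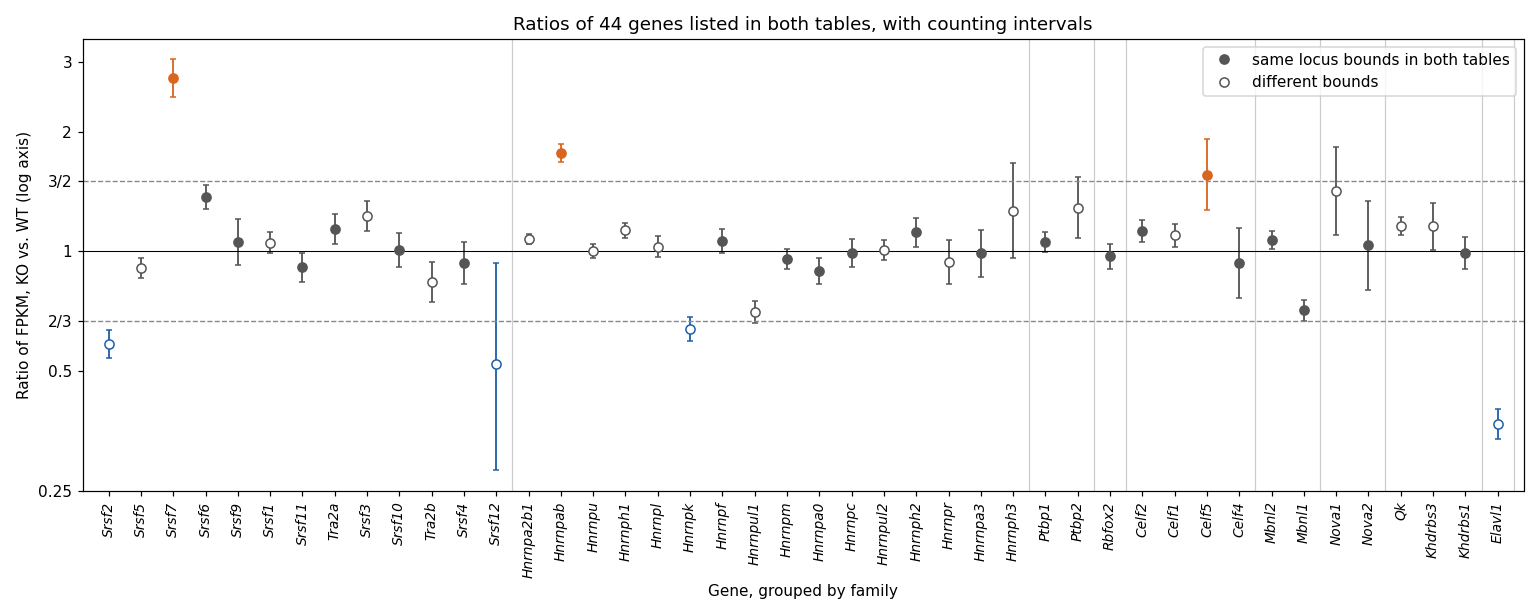
Ratio of FPKM, β-arr1 KO vs. WT (log axis), for the 44 regulators listed in both tables at 1 FPKM or more in at least one library, with exact 95% counting intervals from 1 library per genotype. Filled points have the same locus bounds in both tables and open points do not. The 3 regulators above the dashed line at 3/2 are filled, and the 4 below the line at 2/3 are open.

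Among SR proteins and Tra2 factors, Srsf7 had the highest ratio and Srsf2 and Srsf12 lay below 2/3, with the other 10 within the limits. Srsf7 (NCBI gene 225027), an SR protein with a zinc knuckle that also couples splicing to mRNA export, lies on chromosome 17 from 80599429 to 80606629 on the minus strand. It was at 22.5 (WT) and 61.3 FPKM (KO), a ratio of 2.72 (interval, 2.44 to 3.04) on some 450 and 1258 fragments. The KO library was the higher by far, and the row had the same bounds in both tables. Its 3 annotated transcripts run from 1002 to 2263 bases, so the fragment numbers depend on which of them was expressed. Srsf3, the family member most like Srsf7 in build, was at 24.4 and 29.9 FPKM, a ratio of 1.23. The level of Srsf7 was 0.922 times that of Srsf3 in WT and 2.05 times in KO.

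Srsf2 (NCBI gene 20382), also called SC35, was at 92.7 FPKM in WT, the highest of the family there, but at 54.2 FPKM in the KO table, a ratio of 0.585 (interval, 0.539 to 0.635). Its rows were not alike. The WT row ran on chromosome 11 from 116698746 to 116714408 and took in the neighbouring gene Jmjd6, whereas the KO row began at 116711211. In KO, Jmjd6 had a row of its own with 20.05 FPKM and Mettl23 one with 5.68 FPKM, and neither was listed in WT. Mfsd11, which overlaps the locus, was at 17.4 and 14.3 FPKM. With all these rows added, the locus stood at 110.1 (WT) and 94.2 FPKM (KO), a ratio of 0.856, within the limits. FPKM values of rows with different lengths do not add up to fragments, so that such sums are a rough guide.

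Srsf12 (NCBI gene 272009), a small SR protein that can act as a repressor, was near the minimum, with 1.34 (WT) and 0.699 FPKM (KO). Some 35 and 19 fragments lay behind the ratio of 0.521, so that its interval reached from 0.281 to 0.936. The difference from 2/3 was thus not detectable at this depth.

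The other genes of this family lay within the limits, with ratios from 0.837 to 1.37. Srsf6, which promotes exon inclusion, came nearest to a limit, with 44.04 (WT) and 60.4 FPKM (KO), a ratio of 1.37 (interval, 1.28 to 1.47). Srsf1, the prototype of the family, was at 42.0 and 44.1 FPKM. Srsf5 was at 77.3 and 70.2 FPKM, Srsf9 at 45.0 and 47.5 FPKM, and Srsf11 at 39.6 and 36.1 FPKM. Srsf4 and Srsf10, a regulator that represses splicing when it loses its phosphates, were at 19.8 and 18.5 FPKM and at 23.6 and 23.7 FPKM. The paired factors Tra2a and Tra2b, which bind purine-rich enhancers, lay on opposite sides of 1, with 34.0 and 38.7 FPKM (ratio 1.14) and 20.1 and 16.9 FPKM (ratio 0.837).

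The summed level of this family was 486 (WT) and 502 FPKM (KO), while its makeup differed. Srsf2 supplied 19.1% of the sum in WT and 10.8% in KO, and Srsf7 supplied 4.63% and 12.2%. Srsf5 held 15.9% and 13.98%. The share of Srsf2 in WT includes whatever Jmjd6 and Mettl23 contributed to its row, which covers the KO bounds of both.

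All 17 hnRNP genes listed under that name were analysed, and Hnrnpab was above 3/2. Hnrnpab (NCBI gene 15384), an RNA-binding protein known for the transport of mRNAs in neural cells, lies on chromosome 11 from 51412372 to 51420349 on the minus strand. It was at 108 (WT) and 191 FPKM (KO), a ratio of 1.77 (interval, 1.68 to 1.86), from an estimated 2268 and 4119 fragments. The bounds of its row were the same in both tables and no other row overlapped it. Hnrnpab made up 9.47% of the family's FPKM in WT and 16.3% in KO. The WT sum includes the Hnrnpa1 locus, and the KO sum does not, because the locus carries the name Gm5643 there. Hnrnpab stood at 0.501 times the level of Hnrnpa2b1 in WT and 0.823 times in KO.

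Hnrnpk (NCBI gene 15387), which binds C-rich RNA and single-stranded DNA, was below 2/3. Its level was 75.8 (WT) and 48.2 FPKM (KO), a ratio of 0.637 (interval, 0.594 to 0.683), so the upper end of the interval passed 2/3. The WT row lay on chromosome 13 from 58492545 to 58504170 and the KO row from 58492520 to 58504302, and no other row overlapped either. Differences in bounds of this kind may change the length by which FPKM is divided. Such lengths are not given with the values, and the part of the bounds in the ratio was not tested.

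The most abundant regulator of all was Hnrnpa2b1 (NCBI gene 53379), which binds exon silencers and transport signals, with 216 (WT) and 232 FPKM (KO). Its ratio was 1.07 (interval, 1.04 to 1.11). The KO table held a row for the neighbouring gene Cbx3 with 14.99 FPKM, which began inside the WT bounds of Hnrnpa2b1 and beyond its KO bounds. The WT row of Hnrnpa2b1 reached into Cbx3 but did not span it. Added in KO, where alone it was listed, Cbx3 gave a ratio of 1.14, which does not compare like with like. Hnrnpu, a nuclear scaffold protein, followed with 123.1 (WT) and 123.2 FPKM (KO).

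Hnrnpul1, a relative of Hnrnpu, was just inside the lower limit, with 72.1 (WT) and 50.7 FPKM (KO), a ratio of 0.704 (interval, 0.660 to 0.750). Here too the WT row took in a neighbour. Ccdc97 lay inside the WT row of Hnrnpul1, was not listed in WT and was at 18.6 FPKM in KO, and the sum of both rows was 72.1 and 69.4 FPKM, a ratio of 0.962. Its paralog Hnrnpul2 was at 40.7 and 41.0 FPKM.

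The remaining hnRNP genes had ratios from 0.892 to 1.26. Hnrnph1, Hnrnph2 and Hnrnpf, which bind G-rich runs, were at 90.4 and 102 FPKM, at 28.9 and 32.3 FPKM and at 68.3 and 72.3 FPKM. Hnrnph3 was lower, at 4.92 and 6.22 FPKM, and its ratio of 1.26 had an interval from 0.960 to 1.67. Hnrnpl, which binds CA repeats, was at 85.8 and 88.1 FPKM, and Hnrnpm at 64.2 and 61.4 FPKM. Hnrnpa0, an intronless relative of Hnrnpa1, was at 56.1 and 50.03 FPKM, and Hnrnpa3 at 8.89 and 8.78 FPKM. Hnrnpc, which binds U-rich stretches and masks cryptic exons, was at 46.7 and 46.3 FPKM. Hnrnpr was at 20.6 and 19.4 FPKM.

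A few relatives were listed under older symbols and fell outside the rule. Hnrpdl, the older name of Hnrnpdl, was at 37.0 (WT) and 66.0 FPKM (KO), a ratio of 1.78 (interval, 1.64 to 1.94). Its row on chromosome 5 spanned both Hnrpdl (100462596 to 100468683) and Hnrnpd (100387445 to 100407957), and Hnrnpd had no row of its own, so that either gene or both can lie behind the value. Hnrpll was at 18.7 and 20.5 FPKM and Rod1, the older name of Ptbp3, at 13.0 and 11.7 FPKM.

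The Elavl family was represented by Elavl1 (NCBI gene 15568), also known as HuR, which binds AU-rich elements and stabilises mRNAs in most cell types. Its level was 33.6 (WT) and 12.3 FPKM (KO), a ratio of 0.367, the lowest among the regulators listed in both tables. The interval of 0.336 to 0.400 came from an estimated 1877 and 709 fragments and does not cover what follows. The WT row on chromosome 8 ran from 4259731 to 4325100, and the KO row from 4284782 to 4325100, the annotated bounds of Elavl1. Timm44, a subunit of the mitochondrial import machinery next to Elavl1, lay inside the WT row and was not listed in WT. In KO, Timm44 had its own row from 4259731 to 4275905 with 21.1 FPKM. The rows together came to 33.6 (WT) and 33.5 FPKM (KO), a ratio of 0.997. The neuronal members Elavl2, Elavl3 and Elavl4 were all below 1 FPKM, at 0.298 and 0.348, 0.496 and 0.548, and 0.324 and 0.426 FPKM.

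**Figure D3:**
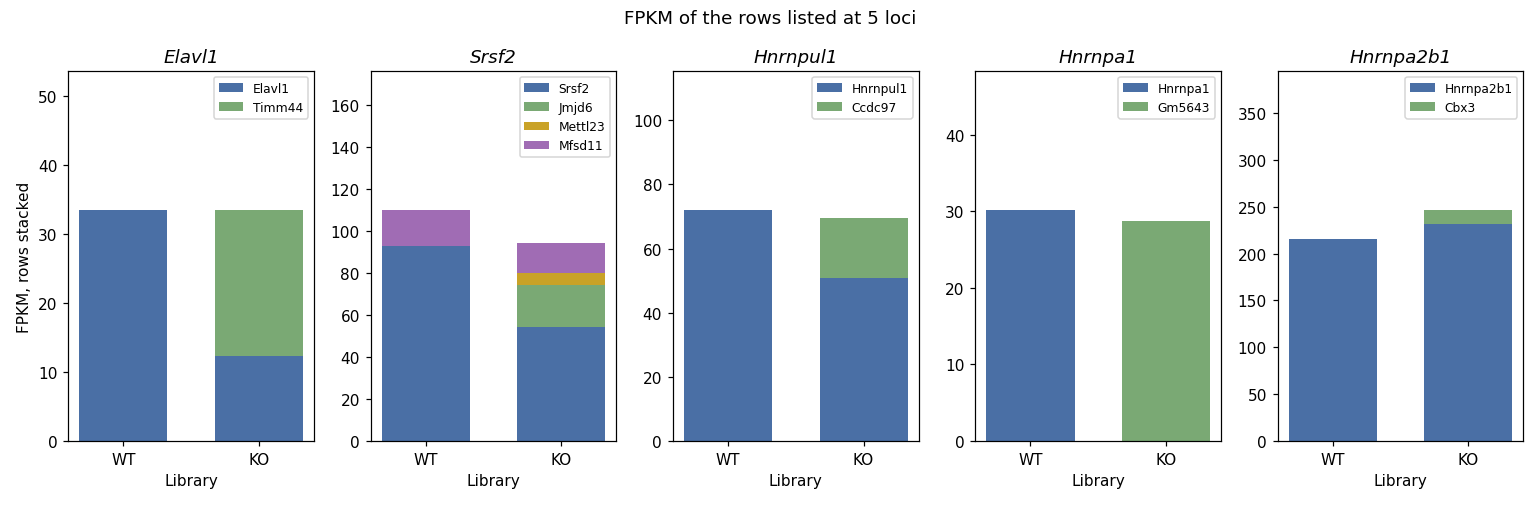
FPKM of all rows listed at the loci of Elavl1, Srsf2, Hnrnpul1, Hnrnpa1 and Hnrnpa2b1, stacked for the WT and the β-arr1 KO library (linear axes from 0, different for each locus). The neighbours Timm44, Jmjd6, Mettl23, Ccdc97 and Cbx3 have a row in KO only, the Hnrnpa1 locus carries the name Gm5643 in KO, and the stacks of the first 4 loci differ less than the rows named for the regulator.

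The share past a limit was also read by whether the bounds of a row were the same in both tables. All 3 regulators above 3/2 had the same bounds in both tables. Of the 23 regulators with the same bounds, 3 were past a limit (13.8% of all such genes were) and 0 were below 2/3 (6.32% of all such genes were). Of the 21 with different bounds, 4 were past a limit, compared with 15.8% of such genes, and all 4 were below 2/3, compared with 7.37%. Different bounds can lie a few bases apart, as in Srsf12, whose rows ended at 33320318 (WT) and 33320315 (KO). The same bounds were found for 52.3% of the regulators listed in both tables and for 60.3% of all genes. A row of another symbol lay in the bounds that either table gave for 8 regulators, and 3 of them (Elavl1, Hnrnpul1 and Srsf2) took in another coding gene in WT only. With the overlapping rows added, 5 of 45 regulators were past a limit in place of 8, compared with 14.4% of all genes, and those below 2/3 were Hnrnpk and Srsf12, compared with 6.62%. Both restrictions were chosen with earlier results of these data known, and the share of all genes with overlapping rows added was computed after seeing the data.

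Ptbp1 exceeded Ptbp2 in both libraries. Ptbp1 (NCBI gene 19205), which represses neuronal exons, was at 81.8 (WT) and 86.3 FPKM (KO), a ratio of 1.05 (interval, 0.996 to 1.12). Ptbp2, its neuronal paralog, was at 7.50 and 9.65 FPKM (ratio 1.29, counting interval from 1.08 to 1.54). Ptbp1 stood at 10.9 times the level of Ptbp2 in WT and 8.94 times in KO.

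Rbfox2 (NCBI gene 93686) carried its family, with 23.2 (WT) and 22.5 FPKM (KO), a ratio of 0.971 (interval, 0.904 to 1.04), and with 97.2% and 96.4% of the family's FPKM. Rbfox1, found in neurons and muscle, was at 0.589 and 0.724 FPKM. Rbfox3, the neuronal nuclear antigen NeuN, was at 0.0743 and 0.108 FPKM, an estimated 2 and 3 fragments.

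Celf proteins bind GU-rich RNA in nucleus and cytoplasm. Celf2 (NCBI gene 14007), the highest of the family in WT, was at 22.9 and 25.8 FPKM (ratio 1.13, counting interval from 1.06 to 1.197), and Celf1 was at 22.8 and 24.99 FPKM. Celf5 (NCBI gene 319586), known mainly from brain, was above 3/2, with 3.91 (WT) and 6.09 FPKM (KO), a ratio of 1.56. It lies on chromosome 10 from 80921972 to 80945454, its row had the same bounds in both tables, and an estimated 157 and 252 fragments gave an interval from 1.27 to 1.91, which included 3/2. Celf4, its closest neighbour in level, was at 5.49 and 5.15 FPKM. Celf3 was at 0.326 and 0.238 FPKM and Celf6 at 0.0808 and 0.0786 FPKM.

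Mbnl proteins, which set splicing patterns of mature muscle and brain, differed from each other. Mbnl1 was at 47.7 (WT) and 33.9 FPKM (KO), a ratio of 0.711 (interval, 0.669 to 0.756). It was inside the limit, and the row had the same bounds in both tables. Mbnl2 (NCBI gene 105559) was at 64.5 and 68.7 FPKM (ratio 1.07, counting interval from 1.01 to 1.12). Mbnl2 stood at 1.35 times the level of Mbnl1 in WT and 2.02 times in KO, and the share of Mbnl1 in the family was 42.5% and 33.0%. Mbnl3 was at 0.234 and 0.120 FPKM. The skeletal muscle markers were higher in KO (39.0 and 128 FPKM in sum), and their part in the Mbnl values was not tested.

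Nova proteins, regulators of neuronal exons, were near the minimum. Nova1 (NCBI gene 664883) was at 1.63 (WT) and 2.32 FPKM (KO), a ratio of 1.42 (interval, 1.10 to 1.83) from an estimated 106 and 155 fragments. Nova2 was at 1.45 and 1.497 FPKM. Of 15 neuron markers, which include Rbfox3, Elavl3 and Elavl4, 14 were listed and 4 reached 1 FPKM in at least one library. Snap25 was at 0.108 and 0.261 FPKM and Slc17a7 at 0.113 and 0.0736 FPKM. Dcx and Gad2 were not listed in WT and had an estimated 3 and 1 fragments in KO. Nefl was at 0.172 FPKM in WT, an estimated 5 fragments, and was not listed in KO. The marker listed in neither library, Map2, had a row under its older symbol Mtap2, at 18.8 (WT) and 18.5 FPKM (KO). This row is outside the counts given here. Without Mtap2, the listed neuron markers summed to 101 and 128 FPKM, mostly from Tubb3 (44.7 and 59.8 FPKM) and Stmn2 (36.6 and 43.4 FPKM).

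Qk and the Khdrbs proteins form the STAR family, which links signals to RNA processing. Qk (NCBI gene 19317), known for its control of glial mRNAs and of myelin transcripts, was at 41.6 (WT) and 48.2 FPKM (KO), a ratio of 1.16 (interval, 1.10 to 1.22), and held 45.0% and 47.1% of the family's FPKM. Oligodendrocyte lineage markers summed to 86.3 and 127 FPKM, and their part in the Qk value was not tested. Khdrbs1, or Sam68, was at 26.4 and 26.2 FPKM, and Khdrbs3 at 23.6 and 27.2 FPKM. Khdrbs2 stayed below the minimum, at 0.882 and 0.685 FPKM.

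Esrp1 and Esrp2, the splicing regulators of epithelia, were both below 1 FPKM. The 9 epithelial markers, which include both, summed to 36.7 and 24.6 FPKM, mostly from Krt19 (32.8 and 23.3 FPKM), with Cdh1 at 0.296 and 0.0240 FPKM. Esrp1 was not listed in WT and was at 0.0276 FPKM in KO, an estimated 1 fragment. Esrp2 (NCBI gene 77411) was at 0.712 and 0.649 FPKM, from an estimated 23 and 21 fragments, with a ratio of 0.911, whose interval (0.480 to 1.72) left no difference detectable at this depth.

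Other RNA processing genes were taken from 3 lists: the core spliceosome, SR protein kinases with their relatives, and further RNA-binding regulators. Of 112 genes, 109 were listed and 105 analysed, and 10 of these (9.52%) were past a limit, 6 above 3/2 and 4 below 2/3 or listed in WT only. The median log2 ratio was -0.02. The share past a limit was 17.8% of all genes at the same minimum and 11% of genes at 20 FPKM or more. With overlapping rows added, 9 of the 105 were past a limit. The lists were not compared by a test.

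The core spliceosome, which carries out the joining itself, was nearly equal in sum, with 1425 (WT) and 1426 FPKM (KO) over 46 genes, of which 2 were above 3/2 and 2 below 2/3. Ddx46, a helicase of the U2 particle, was at 14.8 (WT) and 34.4 FPKM (KO), a ratio of 2.33 (interval, 2.14 to 2.54), with different bounds in the tables, and Prpf31, a protein of the tri-snRNP, at 15.5 and 23.4 FPKM, a ratio of 1.502. Prpf4 was below 2/3, at 6.04 and 3.85 FPKM (ratio 0.636, interval 0.527 to 0.766). So was Snrpg, of the Sm ring, at 11.6 and 7.37 FPKM (ratio 0.637, interval 0.419 to 0.959). Both intervals included 2/3, and that of Prpf31 (1.33 to 1.70) included 3/2.

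The list of SR protein kinases, which control where SR proteins reside, also holds Tnpo3, their import receptor (23.5 and 25.8 FPKM). Of its 9 analysed genes, 1 was above 3/2 and 1 below 2/3 (22.2% past a limit, compared with 17.8% of all genes). Clk4, a nuclear kinase, was at 15.5 (WT) and 23.5 FPKM (KO), a ratio of 1.51 (interval, 1.35 to 1.69). Srpk2, a mainly cytoplasmic kinase, was at 25.2 and 15.3 FPKM (ratio 0.609, counting interval from 0.561 to 0.661), and Srpk1 was at 17.6 and 16.8 FPKM. Clk1 was at 27.8 and 25.2 FPKM. The rows of Clk4 and Srpk2 had different bounds in the tables, and with the overlapping row of Mll5 added the ratio of Srpk2 was 0.676.

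Of 50 analysed genes of the third list, 3 were above 3/2 and 1 was listed in WT only. Fubp1, which binds splice sites and single-stranded DNA, was at 12.7 (WT) and 25.1 FPKM (KO), a ratio of 1.98, with different bounds in the tables. Rbm24 and Rbm20, splicing regulators of heart and skeletal muscle, were at 4.39 and 8.45 FPKM (ratio 1.92) and at 1.27 and 2.26 FPKM (ratio 1.78). Their counting intervals ran from 1.55 to 2.40 and from 1.34 to 2.37, and that of Rbm20 included 3/2. Of the 8 analysed skeletal muscle markers, 7 were above 3/2 or listed in KO only, among them Myog at 0.160 and 4.12 FPKM, and their part in the values of Rbm24 and Rbm20 was not tested. Zfp36, which speeds the decay of AU-rich mRNAs, was at 18.4 FPKM in WT and was not listed in KO, where no row of another name covered its locus.

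**Figure D4:**
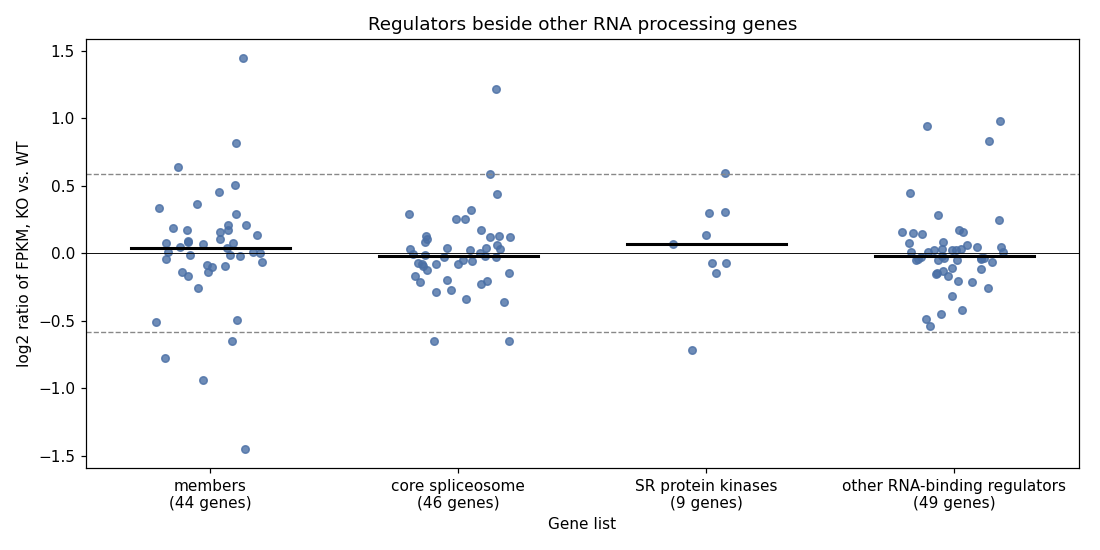
Log2 ratio of FPKM, β-arr1 KO vs. WT, for each gene listed in both tables at 1 FPKM or more in at least one library, for the regulators (members) and the 3 lists of other RNA processing genes, with horizontal spread added for legibility. Thick lines are medians, between -0.02 and 0.07, and dashed lines are the limits of 3/2 and 2/3, past which Srsf7 and Elavl1 lie farthest.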

How the data were processed

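RNA-seq data of cultured DG astrocytes, 1 WT and 1 β-arr1 KO library, were used. The authors deposited FPKM values per gene with a locus and annotation terms. Read pairs were aligned to mm9 with TopHat 1.4.0, per the submitters' processing notes, and expression was estimated with Cufflinks, whose version is not given in the sources used here. FPKM is scaled for transcript length and library size, and the tables hold no counts.

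Tables were joined by symbol, keeping the highest row of a symbol and adding 1 to each start. Genes with 1 FPKM or more in at least one library were analysed by the ratio β-arr1 KO vs. WT, with limits of 3/2 and 2/3 and no pseudocount. A gene listed in 1 table only counted as past a limit. Without replicates no test was possible. Fragments were estimated from genes under 0.15 FPKM with 1 annotated transcript over 1000 bases, of which 69.2% of 416 (WT) and 69.9% of 435 (KO) lay within 5% of a step of 1 to 3 fragments. The longest annotated transcript gave the fragments of a gene (transcript length less 170 bases), and the interval was exact Clopper-Pearson on these. The depth estimate and the interval were tested on simulated counts drawn with 1 length per gene. There the interval was taken from the drawn counts and not from estimated fragments. Genes with several expressed transcripts and rows that span other genes were not simulated, so the test does not cover them. Overlapping rows are those of another symbol that reach into the bounds either table gives for a gene, and another gene was counted as inside a row with 100 bases of slack. Sequences were read from the NCBIM37 genome with GENCODE gene bounds.

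Any regulator could be named. Those past a limit, those in 1 table only and the highest of each family in WT are given with their interval, where there is one. Other genes are named if their row overlaps a regulator, if they belong to a pathway list, are past a limit and reach 5 FPKM, if they carry an older symbol, or if they are markers. Rbm20 is below 5 FPKM, and Srpk1, Clk1 and Tnpo3 are within the limits, and these were added after their values were seen. The members and lists were chosen with earlier results of these data known. Clk2, Raver2 and Rbm4 were not analysed here. Computation used scipy 1.17.1, numpy 2.4.6 and pandas 2.3.3 under Python 3.11.15, and plots matplotlib 3.10.9.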

Additional observations from a re-analysis of the deposited data

How the results depend on the processing

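No paired analysis was possible because each genotype had 1 library, and no library could be left out. With a minimum of 0.1, 5 or 20 FPKM, all genes past a limit numbered 3969, 1179 and 443 in place of 2256, the last being 11% of genes, and other RNA processing genes past a limit numbered 5 at 20 FPKM in place of 10. A minimum of 1 FPKM in both libraries left 3 regulators below 2/3 and 1372 genes (11.8%) past a limit. Limits of 2 and 1/2 left 3 regulators, 1 above and 2 below, 1163 genes (9.2%) and 2 other RNA processing genes. A pseudocount of 1 left 6 of the latter. With overlapping rows added, 5 regulators (2 of them below 2/3) and 1827 genes were past a limit, the latter number added after seeing the data. Among rows with the same bounds there were 3, with 0 below 2/3, 1015 genes and 5 other RNA processing genes, of which the numbers of all genes and of RNA processing genes were added after seeing the data. These settings change which genes or rows are counted.

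The ratio of 42 of 44 regulators kept its side of the limits under 6 alternatives (pseudocounts of 0.1 and 1, 3 rescalings and rows of a symbol summed). A pseudocount of 1 brought Celf5 to 1.44 and Srsf12 to 0.725. Rescaling by table sum, by median ratio or by upper quartile moved log2 ratios by 0.00435, -0.019 and -0.018, and turned the direction of Hnrnpu, Hnrnpul2 and Srsf10, all close to 1. Under these 6 alternatives, the range was 2.65 to 2.73 for Srsf7, 1.74 to 1.77 for Hnrnpab and 0.628 to 0.642 for Hnrnpk. It was 0.577 to 0.590 for Srsf2 and 0.362 to 0.385 for Elavl1. The addition of overlapping rows is not among the 6, and with it Srsf2 was at 0.856 and Elavl1 at 0.997. With 1 library per genotype, depth limits ratios of genes near 1 FPKM, and variation between mice or cultures is unknown.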
